A study of Homo sapiens with 6 samples.

Results

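The expression of 8 transcription factors of pancreatic lineage and tumour subtype was compared between groups of PANC-1 cells. The factors were PDX1, SOX9, GATA4, GATA6, HNF4A, FOXA1, FOXA2 and KLF5. The groups were cells carrying a short hairpin RNA against RRM2 (shRRM2, 3 libraries) and control cells (shNC, 3 libraries). PANC-1 is a human line grown from a ductal carcinoma of the pancreas, and RRM2 is the small subunit of ribonucleotide reductase, which makes deoxynucleotides. The 8 genes were chosen by name for their known roles in pancreatic and foregut identity, with earlier results of these data known. All 8 were among the 42902 genes of the count table. Of these genes, 15866 had enough counts to be tested, and they included 5 of the 8 factors. The labels give the shNC cells the genotype WT and name no other allele or agent. The titles of these control samples read NC and name no hairpin. Neither the number of hairpins nor the origin of the replicates (separate cultures or not) is stated, so the p-values reflect only how these libraries scatter, and part of that scatter may be technical.

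The pancreas arises from foregut endoderm, where the forkhead proteins FOXA1 and FOXA2 open closed chromatin and GATA4, GATA6, SOX9 and PDX1 set up the multipotent progenitors of the organ. In the adult gland SOX9 marks the duct, PDX1 is kept mainly in beta cells, and HNF4A is an orphan nuclear receptor of liver, gut and islet epithelium. In pancreatic cancer, GATA6 and HNF4A are known as factors of the classical subtype, and KLF5 as a factor that maintains the epithelial programme of differentiated tumours.

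The measurement was the number of reads per gene, given below as counts and as CPM, counts relative to the library total after correction by the trimmed mean of M values (TMM). Library totals ran from 16606947 to 23300433 counts. The libraries of a group differed more than sampling noise, so none was treated as a repeat of another. The targeted gene RRM2 had 716, 808 and 716 counts in shRRM2 replicates 1 to 3, against 3567, 4435 and 3342 counts in shNC replicates 1 to 3, which gave a log2 fold change of −2.31 with an SE of 0.0443 (adjusted p = 3.72e-29). Fold changes below put shRRM2 over shNC, on a log2 scale, and all adjusted p-values are from edgeR's quasi-likelihood test with Benjamini-Hochberg adjustment over all tested genes. A gene was called higher or lower at an adjusted p under 0.05. The RRM2 knockdown was accompanied by calls in 52.1% of all tested genes, 26.0% higher and 26.1% lower, and the counts of factors below are to be read against these shares.

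Of the 5 tested factors, 4 were called higher in shRRM2 cells (FOXA1, SOX9, GATA6 and HNF4A), none was called lower, and KLF5 was not called. A gene is said to have passed the count filter through a group where all 3 of its libraries reached the filter's level. HNF4A passed only through shRRM2, so it had to be higher there to be tested at all. FOXA1, SOX9, GATA6 and KLF5 passed through both groups. Of these 4, 3 were called higher, with a median log2 fold change of 0.94 over the 4. In 4 of the 5 tested factors the CPM values of the groups did not overlap, with shRRM2 above shNC. HNF4A is among these 4, and the filter favoured this outcome for it. The same was so in 29.2% of all tested genes, and groups that did not overlap in either direction made up 57.8%. PDX1, FOXA2 and GATA4 were below the filter, with 1 count between them. These are bulk libraries, in which more cells of a type and more RNA per cell cannot be told apart.

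Promoter windows of RefSeq (GRCh38.p14) were read for 4 of the 8 factors, from 250 bases before to 50 bases after an annotated start. The windows of FOXA1, GATA6 and HNF4A are shown because these genes were called higher. SOX9 was called higher too but was not among the 4 with a window. The windows of KLF5 were read and are not shown. HNF4A has a pair of windows because it is known to be transcribed from 2 promoters. Capitals mark matches, on either strand, to 8 short words known as the core sites of the families to which the factors belong. The words searched were GATAA for GATA factors, TGTTTAC and TGTTTGC for forkhead factors, ACAAAG for SOX factors, TAATTA for homeodomain factors such as PDX1, CAAAGTCCA for HNF4, and GGGCGGGG and CCACCC for KLF factors. The FOXA1 window is chr14:37595200-37595499 on the minus strand, the GATA6 window chr18:22169339-22169638 on the plus strand, and the HNF4A windows chr20:44355449-44355748 and chr20:44400989-44401288 on the plus strand.
FOXA1: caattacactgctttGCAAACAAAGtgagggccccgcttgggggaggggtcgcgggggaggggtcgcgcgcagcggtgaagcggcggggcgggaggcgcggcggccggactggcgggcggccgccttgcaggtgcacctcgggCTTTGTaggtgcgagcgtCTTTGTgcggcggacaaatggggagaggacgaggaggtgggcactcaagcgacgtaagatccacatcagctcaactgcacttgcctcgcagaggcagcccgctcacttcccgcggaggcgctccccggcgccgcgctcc
GATA6: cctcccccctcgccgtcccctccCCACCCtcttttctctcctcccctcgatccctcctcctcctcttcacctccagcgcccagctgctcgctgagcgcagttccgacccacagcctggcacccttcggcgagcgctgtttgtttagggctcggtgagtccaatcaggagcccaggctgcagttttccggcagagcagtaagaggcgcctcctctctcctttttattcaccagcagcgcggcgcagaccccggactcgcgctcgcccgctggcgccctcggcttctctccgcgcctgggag
HNF4A, upstream start: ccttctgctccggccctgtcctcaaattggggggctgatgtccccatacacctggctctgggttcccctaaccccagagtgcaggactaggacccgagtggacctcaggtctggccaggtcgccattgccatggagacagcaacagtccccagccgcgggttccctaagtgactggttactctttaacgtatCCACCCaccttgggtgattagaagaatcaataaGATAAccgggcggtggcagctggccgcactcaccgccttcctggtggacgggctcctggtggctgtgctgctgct
HNF4A, downstream start: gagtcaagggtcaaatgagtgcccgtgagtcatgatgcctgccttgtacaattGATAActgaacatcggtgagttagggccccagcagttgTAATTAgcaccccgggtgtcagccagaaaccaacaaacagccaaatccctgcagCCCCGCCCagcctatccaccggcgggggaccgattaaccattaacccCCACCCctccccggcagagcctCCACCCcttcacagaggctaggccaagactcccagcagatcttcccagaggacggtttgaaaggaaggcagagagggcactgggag

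Among all 35116 RefSeq windows of 300 bases, GATAA was found in 22.7%, TGTTTAC in 3.42%, TGTTTGC in 3.89%, ACAAAG in 16.1%, TAATTA in 4.84%, CAAAGTCCA in 0.384%, GGGCGGGG in 22.8% and CCACCC in 34.3%. The FOXA1 window held TGTTTGC, read on the opposite strand as GCAAACA, at position −235 from the start, and it shared its last 3 letters with an ACAAAG. A further pair of ACAAAG words lay at −107 and −89. The GATA6 window held 1 CCACCC and none of the other words. Both HNF4A windows held 1 GATAA, at −25 from the upstream start and at −197 from the downstream start. TAATTA occurred in the downstream HNF4A window alone, at −159. CCACCC lay at −58 in both HNF4A windows. The downstream window also held CCACCC at −36 and GGGCGGGG, on the opposite strand, at −105. The HNF4A starts are 45540 bases apart, as are the promoters known as P2, used in islets, and P1, used in liver. The counts were summed per gene and do not tell the promoters apart. The FOXA1 and GATA6 windows were rich in G and C, at 69.3% and 66.7%, against a median of 58.7% over all windows. They held 34 and 25 CpG dinucleotides, against 11 and 9 in the upstream and downstream HNF4A windows and a median of 14. A match is a word in the sequence, and binding was not measured.

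The foregut and progenitor factors PDX1, FOXA2 and GATA4 were at or near 0. PDX1 (Gene ID 3651, chromosome 13, 27920000 to 27926313, GRCh38), the homeodomain factor of the pancreatic bud and the beta cell, had 0 counts in all 3 shRRM2 libraries and in all 3 shNC libraries. FOXA2 (Gene ID 3170, chromosome 20, 22580998 to 22585490), the forkhead partner of FOXA1 in endoderm, likewise had 0 counts in all 6 libraries. GATA4 (Gene ID 2626), which acts beside GATA6 in the early pancreas, had 0 counts in the 3 shRRM2 libraries and, in shNC replicates 1 to 3, 0, 0 and 1 count. A count of 0 allows up to 3 counts, which is 0.130 to 0.182 CPM depending on the library, and this limit covers counting error only. No fold change is given for these 3 genes.

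FOXA1 (Gene ID 3169, chromosome 14, 37589552 to 37595249), a pioneer factor of endoderm-derived epithelia, was called higher in shRRM2 cells. It had 191, 231 and 207 counts in shRRM2 replicates 1 to 3, or 10.8, 11.6 and 11.4 CPM, against 79, 107 and 64 counts in shNC replicates 1 to 3, or 4.51, 4.64 and 3.88 CPM. All 3 shRRM2 libraries lay above all 3 shNC libraries, and the spread within each group was small beside the gap. The mean was 11.3 ± 0.430 CPM in shRRM2 and 4.34 ± 0.403 CPM in shNC (SD, n = 3 each). Its log2 fold change came to 1.37 (SE 0.140, 95% interval 1.08 to 1.65, adjusted p = 5.02e-10), a 2.58-fold higher level. This value exceeded that of 97.0% of all tested genes. The promoter window shown for FOXA1 ends within the transcribed part, and its first 25 transcribed bases were found in 1 of the 5 GENCODE 29 transcripts of the gene. Those of the HNF4A windows were found in none of the 9 HNF4A transcripts, so these starts are given as RefSeq has them.

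SOX9 (Gene ID 6662, chromosome 17, 72121020 to 72126416), the HMG-box factor of pancreatic progenitors and adult ducts, was also called higher. It had 193, 235 and 223 counts in shRRM2 replicates 1 to 3, or 10.9, 11.8 and 12.3 CPM, against 90, 87 and 89 counts in shNC replicates 1 to 3, or 5.14, 3.77 and 5.40 CPM. The groups did not overlap, and shNC replicate 2 was the lowest of the 6 libraries. The mean was 11.7 ± 0.709 CPM in shRRM2 and 4.77 ± 0.875 CPM in shNC (SD, n = 3 each). Its log2 fold change came to 1.31 (SE 0.146, 95% interval 1.01 to 1.61, adjusted p = 2.83e-09), a 2.48-fold higher level that exceeded that of 96.7% of tested genes. The 95% intervals of FOXA1 and SOX9 overlapped over most of their length, and a difference between their fold changes was not tested.

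HNF4A (Gene ID 3172, chromosome 20, 44355699 to 44434596) had the fewest counts of the tested factors and the widest interval. It had 13, 30 and 25 counts in shRRM2 replicates 1 to 3, or 0.734, 1.51 and 1.38 CPM, against 10, 11 and 9 counts in shNC replicates 1 to 3, or 0.571, 0.477 and 0.546 CPM. The groups did not overlap, but shRRM2 replicate 1 lay nearer to the shNC libraries than to the other shRRM2 libraries. In all, 68 counts in shRRM2 and 30 counts in shNC carried the comparison. The mean was 1.21 ± 0.414 CPM in shRRM2 and 0.531 ± 0.0488 CPM in shNC (SD, n = 3 each), with a log2 fold change of 1.19 (SE 0.415, 95% interval 0.35 to 2.04, adjusted p = 0.0159). In CPM of the unscaled library totals, all 3 shRRM2 libraries and none of the 3 shNC libraries reached the filter's level of 0.560. The call was lost without shRRM2 replicate 2 (adjusted p = 0.0866), without shRRM2 replicate 3 (adjusted p = 0.0598) and without shNC replicate 2 (adjusted p = 0.0656). The genes HNF4A-AS1 and MIR3646, which overlap HNF4A, had 0 counts in every library.

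GATA6 (Gene ID 2627, chromosome 18, 22169589 to 22202528), the zinc-finger factor of the early pancreas and of the classical tumour subtype, was called higher. It had 409, 362 and 380 counts in shRRM2 replicates 1 to 3, or 23.1, 18.2 and 21.0 CPM, against 240, 344 and 212 counts in shNC replicates 1 to 3, or 13.7, 14.9 and 12.9 CPM. The groups did not overlap in CPM, and shRRM2 replicate 2 came closest to the shNC libraries. The mean was 20.8 ± 2.46 CPM in shRRM2 and 13.8 ± 1.03 CPM in shNC (SD, n = 3 each). Its log2 fold change came to 0.58 (SE 0.102, 95% interval 0.37 to 0.79, adjusted p = 1.28e-05), a 1.49-fold higher level. It exceeded the value of 87.8% of tested genes, and the median size of the fold change among all called genes was 0.39. The GATA6 value was below those of FOXA1 and SOX9, and its 95% interval lay inside that of HNF4A. Differences between these fold changes were not tested.

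KLF5 (Gene ID 688, chromosome 13, 73054976 to 73077538), the Krüppel-like factor of epithelial tumour cells, did not pass the test. It had 1689, 1791 and 1749 counts in shRRM2 replicates 1 to 3, or 95.4, 90.0 and 96.5 CPM, against 1783, 2103 and 1660 counts in shNC replicates 1 to 3, or 101.8, 91.1 and 100.7 CPM. The groups overlapped, and replicate 2 was the lowest library of each. The mean was 94.0 ± 3.45 CPM in shRRM2 and 97.9 ± 5.87 CPM in shNC (SD, n = 3 each). Its log2 fold change came to −0.06 (SE 0.0476, adjusted p = 0.340), and its 95% interval ran from −0.15 to 0.04, or from 0.900-fold to 1.03-fold. KLF5 had the most counts and the narrowest interval of the 5 tested factors.

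**Figure D1:**
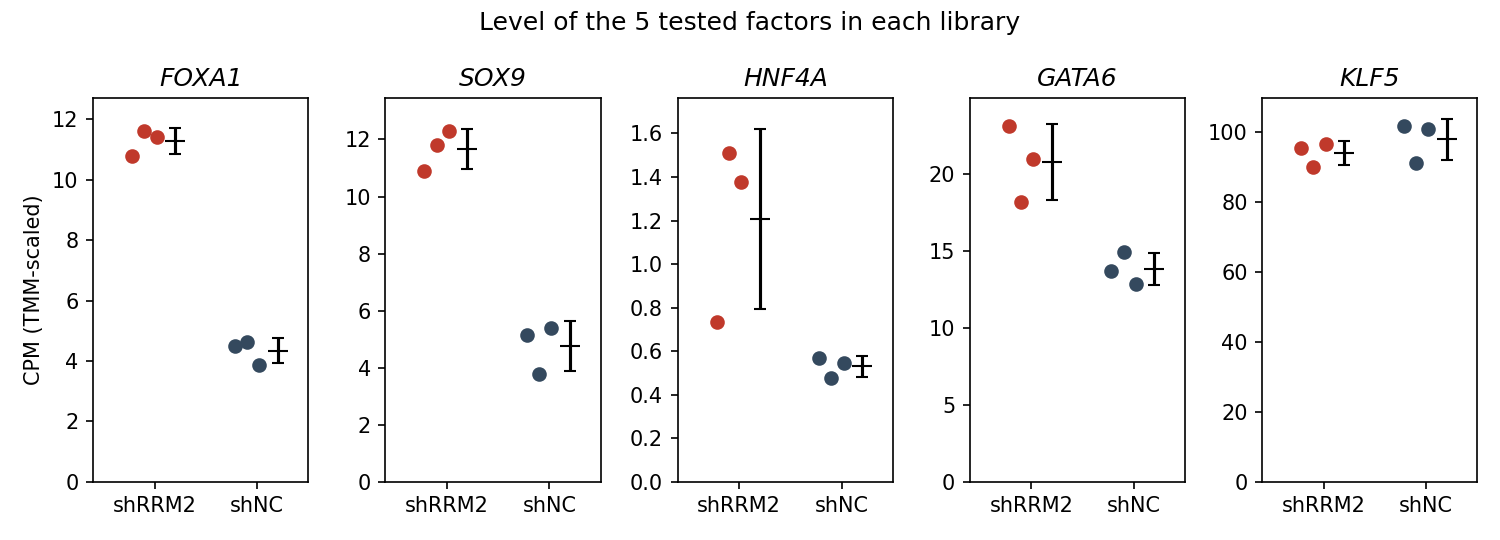
Level in CPM on TMM-scaled library sizes (y axis, each panel from 0 on its own scale) of the 5 tested factors in the shRRM2 and shNC libraries. Points are the 3 libraries of a group, and the bar beside them is their mean and SD. The shRRM2 points lie above the shNC points for FOXA1, SOX9, HNF4A and GATA6, with shRRM2 replicate 1 of HNF4A at 0.734 CPM near the shNC libraries, and the points of KLF5 overlap.

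The plot of these fold changes against all tested genes shows where the factors fell in the whole response. The distribution was centred near 0, with a median log2 fold change of −0.01.

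**Figure D2:**
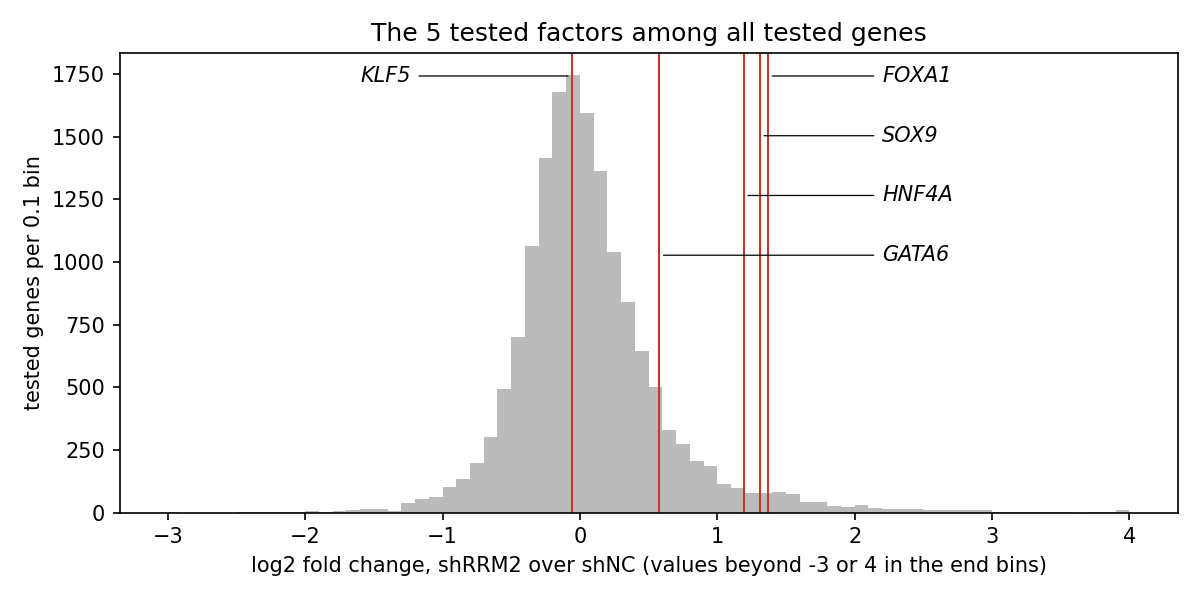
Number of tested genes (y axis) by log2 fold change of shRRM2 over shNC (x axis, bins of 0.1) for all 15866 tested genes, with the 5 tested factors as red lines. FOXA1 at 1.37, SOX9 at 1.31 and HNF4A at 1.19 lie in the right tail, GATA6 at 0.58 on the right shoulder and KLF5 at −0.06 at the centre.

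Levels of different genes were compared per length, as CPM per kilobase of exon in the GENCODE 29 annotation. KLF5 was the most abundant of the 8 factors, at 24.1 CPM per kilobase in shRRM2 and 25.1 in shNC. GATA6 followed at 5.26 CPM per kilobase in shRRM2 and 3.50 in shNC. SOX9 and FOXA1 came next and could not be ordered. SOX9 ranged from 2.77 to 3.13 CPM per kilobase in shRRM2 and from 0.958 to 1.37 in shNC, and FOXA1 from 2.71 to 2.92 in shRRM2 and from 0.975 to 1.16 in shNC. HNF4A was far below them, at 0.165 CPM per kilobase in shRRM2 and 0.0727 in shNC. KLF5, GATA6, the pair of SOX9 and FOXA1, and HNF4A kept this order in both groups without overlap between neighbouring steps.

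**Figure D3:**
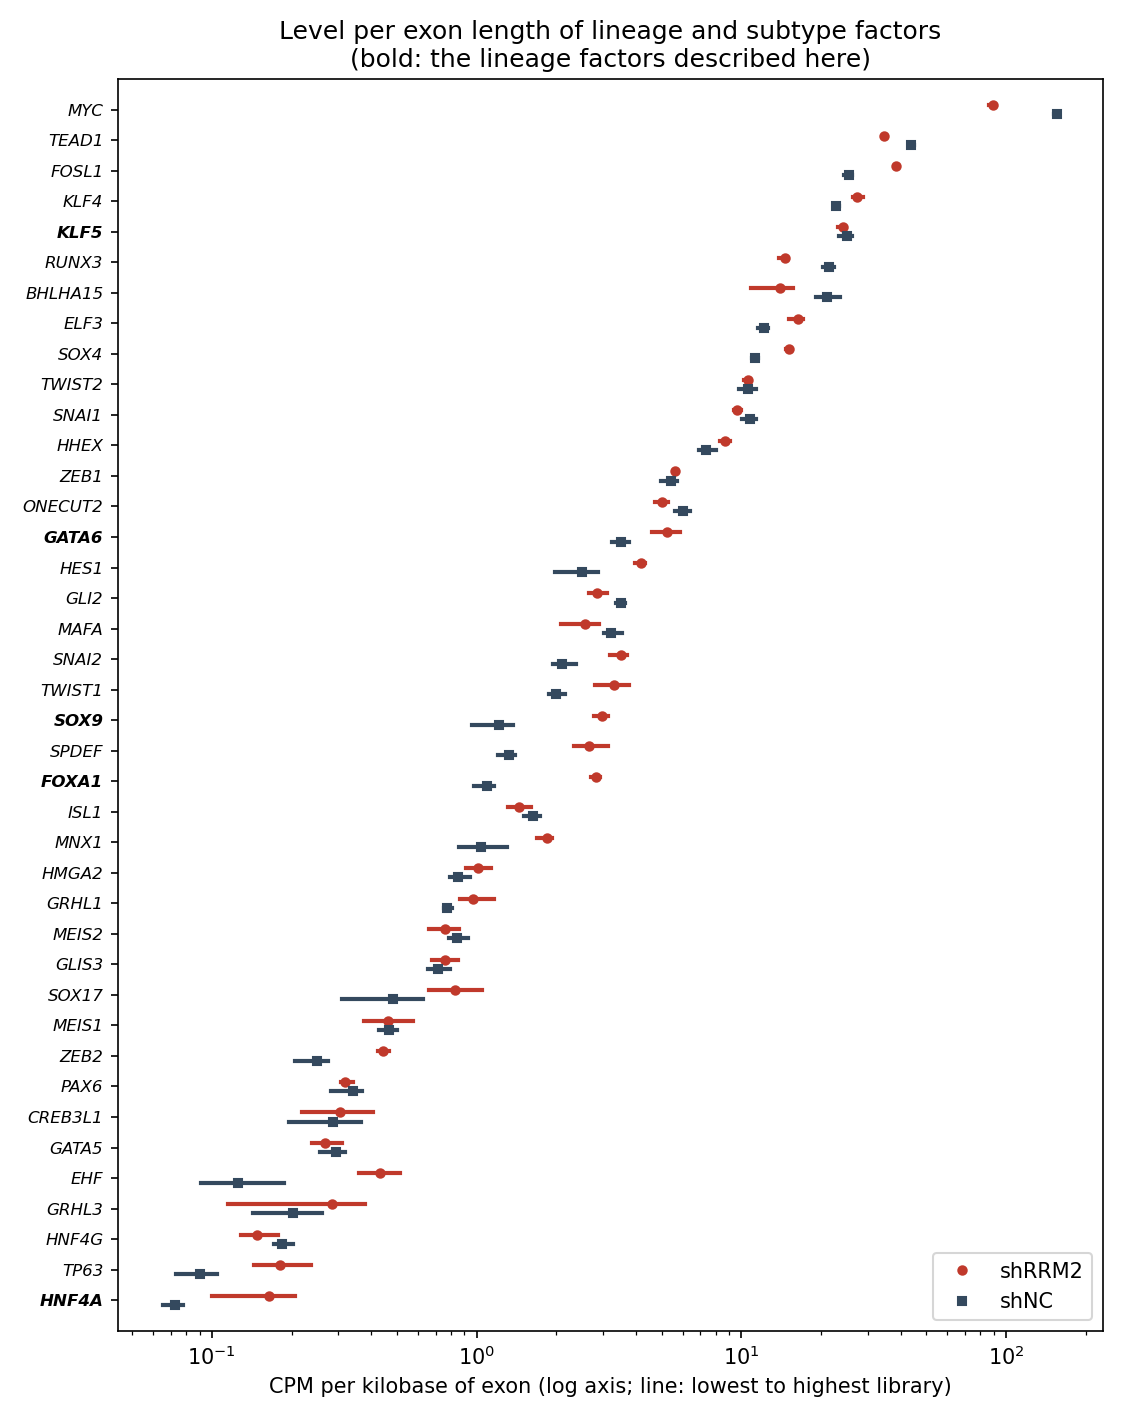
Level in CPM per kilobase of exon (x axis, log scale) of 40 factors of the lineage and subtype lists with at least 20 counts in all, in shRRM2 (red circles) and shNC (dark squares). Symbols are means of 3 libraries, lines run from the lowest to the highest library, and bold names are the lineage factors. KLF5 at 24.1 and 25.1 lies near the top, GATA6, SOX9 and FOXA1 in the middle, and HNF4A at 0.165 and 0.0727 at the bottom.

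For each tested factor, the 2 genes with the most similar pattern over the 6 libraries were taken, by the root mean square difference of log2 CPM centred on each gene's mean, among genes with a mean of 5 CPM or more. For FOXA1 these were P4HA2, a collagen prolyl hydroxylase subunit, and FHDC1, at 0.0358 and 0.0445. For SOX9 they were IFIT3, an interferon-induced gene, and the noncoding RNA LINP1, at 0.0661 and 0.0961. For GATA6 they were MYO5B, a myosin motor of apical trafficking, and RAB6B, a Rab GTPase, at 0.0488 and 0.0537. For KLF5 they were EYA3 and RAB3GAP1, at 0.0166 and 0.0203. For HNF4A the nearest genes, GAB2 and BNC2, were farther off, both at 0.176. HNF4A itself had 1.21 CPM in shRRM2 and 0.531 CPM in shNC, so genes of its own level were not candidates. The part of counting noise in its distances was not tested. With 6 libraries in 2 groups, this measure mostly reflects the difference between the groups.

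The close relatives of the factors did not all move one way. Of 10 paralogs, 6 were tested, and KLF2, GATA3 and KLF4 were called higher and GATA2 lower. Of the 5 that passed the filter through both groups, 2 were called higher and 1 lower, with a median log2 fold change of −0.14 over the 5. KLF2, a Krüppel-like factor best known from endothelium, rose by 1.77 (SE 0.255, adjusted p = 4.52e-07), with 4.14 ± 1.03 CPM in shRRM2 and 1.22 ± 0.129 CPM in shNC (SD, n = 3 each). KLF4, a regulator of epithelial differentiation, rose by 0.27 (adjusted p = 7.26e-06), with 100.5 CPM in shRRM2 and 83.5 CPM in shNC. KLF4 and KLF2 were thus called and KLF5 was not, and the difference between their fold changes was not tested. GATA2, a haematopoietic GATA factor, fell by 0.28 (adjusted p = 9.74e-07), with 106.3 ± 2.96 CPM in shRRM2 and 128.8 ± 4.86 CPM in shNC (SD, n = 3 each). In CPM per kilobase, GATA2 stood at 23.8 in shRRM2 and 28.9 in shNC, above GATA6 in both groups. GATA3 was called at 1.00 (adjusted p = 0.0339) and passed the filter through shRRM2 alone, with 1.19 CPM in shRRM2 and 0.582 CPM in shNC. GATA5 and HNF4G were tested and not called (adjusted p = 0.808 and 0.567). FOXA3, the remaining FOXA gene, had 1 count in all 6 libraries together, so FOXA1 was the FOXA gene with counts above the filter.

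The long noncoding RNAs beside the factors were nearly silent. GATA6-AS1, which lies next to GATA6 in the opposite orientation, had 16, 11 and 14 counts in shRRM2 replicates 1 to 3, against 9, 9 and 13 counts in shNC replicates 1 to 3, and was not called (log2 fold change 0.42, adjusted p = 0.461). SOX9-AS1, ROCR near SOX9, HNF4A-AS1 and LINC00261 near FOXA2 had 0 counts in all 6 libraries. Whether reads were counted by strand is not given in the sources used here, so reads of antisense pairs may not be told apart.

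The wider programme of pancreas development moved in both directions. Of 38 other factors of this programme, 19 were tested, 5 were called higher (26.3%) and 4 lower (21.1%), near the 26.0% and 26.1% of all tested genes, and their median log2 fold change was −0.10. All 19 passed the filter through both groups. MNX1, a homeodomain factor of the dorsal bud in mice and of beta cells, rose by 0.81 (SE 0.164, adjusted p = 9.15e-05), with 7.74 ± 0.541 CPM in shRRM2 and 4.35 ± 0.979 CPM in shNC (SD, n = 3 each). HES1, the Notch effector that holds progenitors undifferentiated, rose by 0.73 (adjusted p = 0.000118), with 8.65 CPM in shRRM2 and 5.17 CPM in shNC. SOX4 rose by 0.42 (adjusted p = 6.29e-09) and HHEX, needed for the ventral bud in mice, by 0.23 (adjusted p = 0.0294).

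BHLHA15, TEAD1 and ONECUT2 were among the 4 developmental factors called lower. BHLHA15, known as MIST1 and in mice as an acinar maturation factor, fell by 0.58 on the log2 scale (adjusted p = 0.000201, SE 0.123), with 11.2 ± 2.18 CPM in shRRM2 and 16.8 ± 1.81 CPM in shNC (SD, n = 3 each). TEAD1, the DNA-binding partner of YAP, fell by 0.34 (adjusted p = 3.47e-11) and ONECUT2 by 0.27 (adjusted p = 3.35e-05). SOX17 missed the threshold at 0.75 (adjusted p = 0.0516). A further 19 factors were below the filter and 14 of them had 0 counts in every library. Those at 0 include PTF1A of acinar cells, NEUROG3 and NEUROD1 of endocrine cells, NKX6-1 of beta cells and ONECUT1. The factors at or near 0 thus include PDX1, FOXA2, GATA4 and several that are known to act beside them.

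Factors linked to the subtypes of pancreatic cancer were read as 2 lists, one for each side of that division. Of 12 further epithelial and classical subtype factors, 7 were tested, 4 were called higher and none lower. KLF4, also counted above as a paralog, is among the 4. Of the 5 that passed through both groups, 3 were called higher, with a median log2 fold change of 0.32 over the 5. SPDEF, an ETS factor of mucous cells, rose by 1.02 (SE 0.197, adjusted p = 4.58e-05), with 5.10 ± 0.789 CPM in shRRM2 and 2.53 ± 0.205 CPM in shNC (SD, n = 3 each). ELF3, an epithelial ETS factor, rose by 0.42 (adjusted p = 4.66e-09), with 117.4 CPM in shRRM2 and 87.8 CPM in shNC. EHF, a further epithelial ETS factor, was called at 1.73 (adjusted p = 0.000213) but passed the filter through shRRM2 alone, at 1.90 CPM in shRRM2 and 0.549 CPM in shNC. GRHL2 and OVOL1, which are broadly expressed in epithelia, had 0 counts in all 6 libraries.

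Of 14 basal and mesenchymal subtype factors, 12 were tested, 5 were called higher and 3 lower. Of the 11 that passed through both groups, 4 were called higher and 3 lower, with a median log2 fold change of 0.06 over the 11. The summed level of the list was 544.6 to 567.4 CPM in shRRM2 and 740.8 to 764.5 CPM in shNC, and MYC held the largest part of it. ZEB2, SNAI2 and TWIST1, repressors of epithelial genes, rose by 0.85 (adjusted p = 3.25e-06), 0.76 (adjusted p = 9.58e-06) and 0.72 (adjusted p = 0.000515). FOSL1, an AP-1 subunit, rose by 0.59 (adjusted p = 2.75e-11), with 72.6 CPM in shRRM2 and 48.4 CPM in shNC. TP63, the factor of squamous epithelium, was called at 0.99 (adjusted p = 0.0282) through shRRM2 alone, at 1.35 CPM in shRRM2 and 0.670 CPM in shNC. MYC fell by 0.80 on the log2 scale (adjusted p = 3.55e-20), RUNX3 by 0.55 (adjusted p = 2.00e-11) and GLI2, an effector of Hedgehog signalling, by 0.30 (adjusted p = 0.00294). ZEB1, SNAI1, TWIST2 and HMGA2 were not called.

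**Figure D4:**
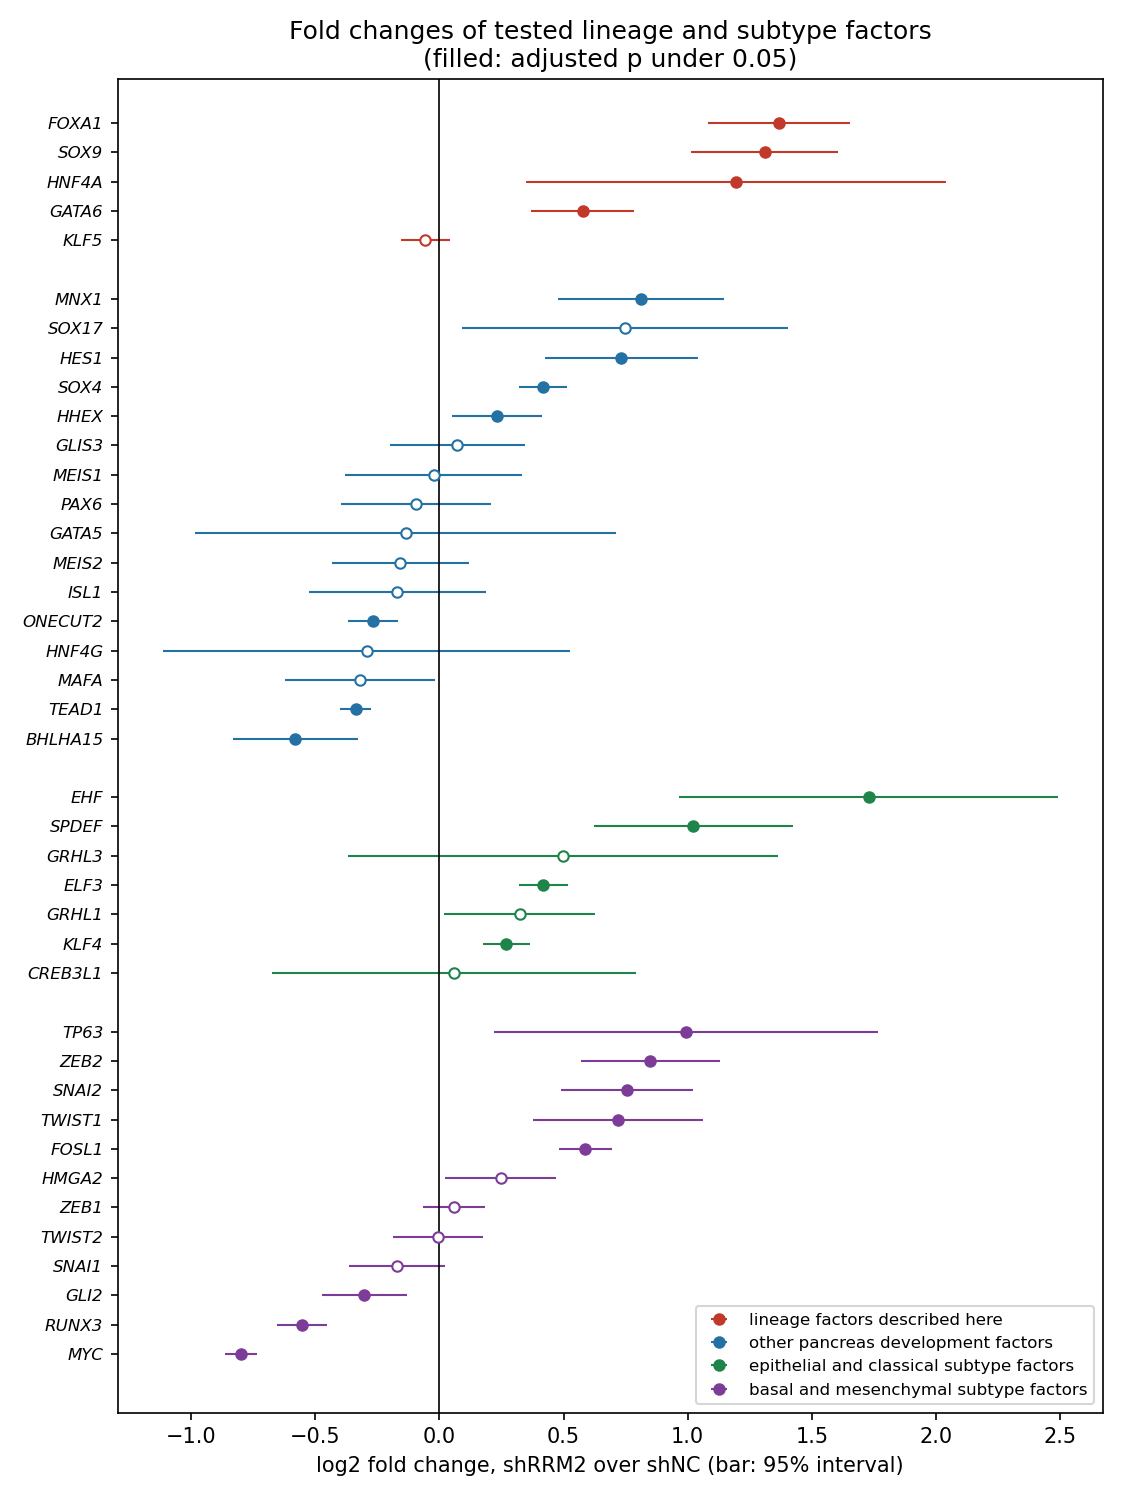
Log2 fold change of shRRM2 over shNC (x axis) for tested genes of 4 lists of transcription factors, ordered within each list. Points are fold changes, bars their 95% intervals, and filled points have an adjusted p under 0.05. The lineage factors (red) run from −0.06 for KLF5 to 1.37 for FOXA1, the other pancreas development factors (blue) lie on both sides of 0, the epithelial factors (green) have no filled point below 0, and the basal and mesenchymal factors (purple) have filled points on both sides.

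The genes that define the tumour subtypes were next set beside the factors. Of 24 genes of the classical subtype, 23 were in the table, 20 of these were below the filter and 8 had 0 counts in every library, among them TFF1, AGR3 and CDH17. TSPAN8, a tetraspanin of the classical subtype, rose by 1.42 (SE 0.179, adjusted p = 2.15e-06), with 15.2, 15.8 and 13.2 CPM in shRRM2 replicates 1 to 3, against 7.19, 3.55 and 6.13 CPM in shNC replicates 1 to 3. MYO1A, a brush border myosin, was called at 1.73 (adjusted p = 0.000259) through shRRM2 alone. KRT20 was not called (log2 fold change −0.38, adjusted p = 0.438). The classical genes were therefore mostly too low to be compared.

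Of 24 genes of the basal-like subtype, 13 were tested, 12 were called higher and 1 lower. Of the 10 that passed the filter through both groups, 9 were called higher, 1 was called lower, and the median log2 fold change was 0.81, against −0.01 over all tested genes. KRT17, a basal keratin, rose by 1.66 (SE 0.0511, adjusted p = 1.76e-23), with 111.7, 115.6 and 111.4 CPM in shRRM2 replicates 1 to 3, against 34.4, 35.6 and 36.9 CPM in shNC replicates 1 to 3. TNS4, a tensin of focal adhesions, rose by 0.83 (SE 0.0357, adjusted p = 2.29e-19), with 234 ± 4.67 CPM in shRRM2 and 131.9 ± 2.09 CPM in shNC (SD, n = 3 each). AREG, the EGF receptor ligand amphiregulin, rose by 1.78 (adjusted p = 5.71e-10) and FAM83A by 1.54 (adjusted p = 1.20e-12). KRT7, the member called lower, fell by 0.07 (adjusted p = 0.0442) with overlapping groups, and that call was lost under several other settings. Genes of liver and gut stayed below the filter in 12 of 14 cases, including ALB, APOB and FABP1 at 0. F10 and TF of that list were tested and not called (adjusted p = 0.139 and 0.905).

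**Figure D5:**
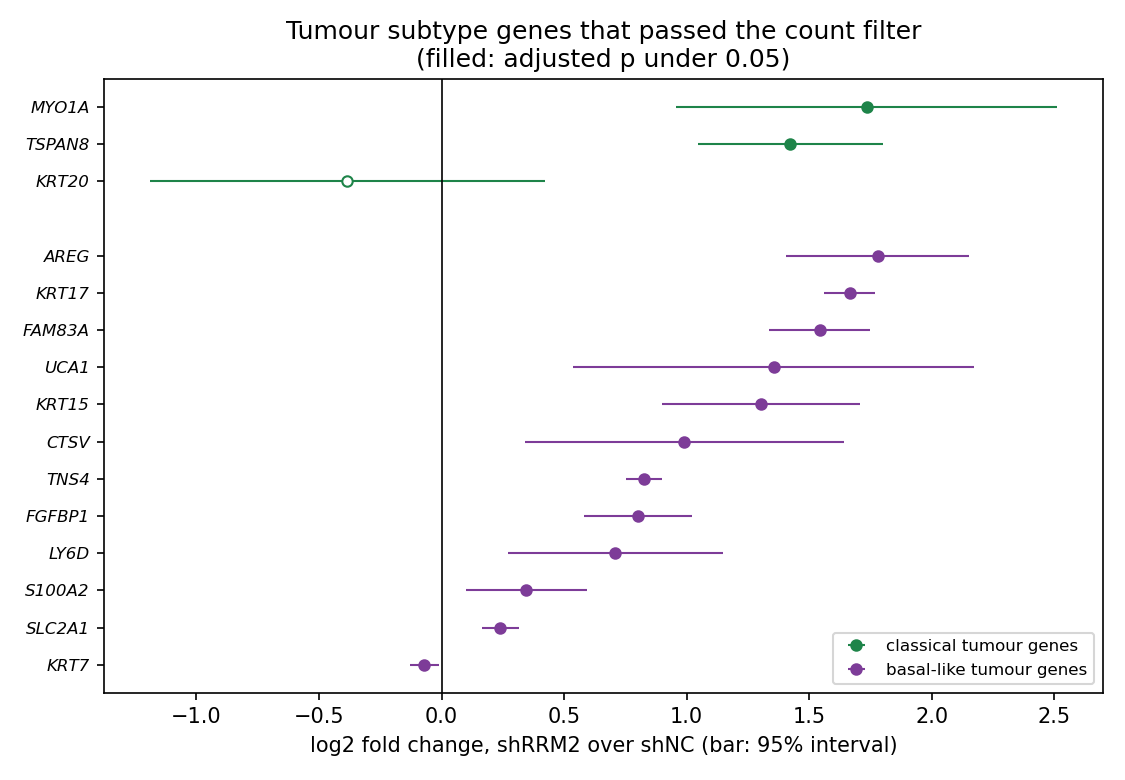
Log2 fold change of shRRM2 over shNC (x axis) for the 3 classical genes (green) and 12 of the 13 basal-like genes (purple) that passed the count filter. Points are fold changes, bars their 95% intervals, and filled points have an adjusted p under 0.05. Of the basal-like genes drawn, 11 lie right of 0, up to 1.78 for AREG, and KRT7 lies at −0.07.

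Markers of pancreatic, stromal and immune cell types were read beside these results in the PANC-1 line. The calls of these markers are to be read against the shares of all tested genes, 26.0% higher and 26.1% lower. Of 11 ductal markers, 6 were tested, and KRT8, KRT18, MUC1 and EPCAM were called higher and KRT7 lower. EPCAM passed the filter through shRRM2 alone. Among the 5 that passed through both groups, 3 were called higher and 1 lower. KRT8, a keratin of simple epithelia, rose by 0.60 (adjusted p = 5.41e-19) and MUC1 by 0.85 (adjusted p = 8.39e-06), while the ductal keratin KRT19 had 6, 6 and 6 counts in shRRM2 replicates 1 to 3 and 2, 2 and 0 counts in shNC replicates 1 to 3. Of 8 acinar markers 1 was tested (CEL, not called), and of 7 endocrine markers none, with INS, GCG, PRSS1 and CPA1 at 0. Of 8 fibroblast markers 3 were tested and called higher (COL1A1, PDGFRB and FAP), FAP passing the filter through shRRM2 alone. The summed level of the fibroblast list was 61.1 to 65.9 CPM in shRRM2 and 27.5 to 29.5 CPM in shNC. COL1A1 and PDGFRB made up most of that sum, at 32.0 and 28.5 CPM in shRRM2 and 19.3 and 9.09 CPM in shNC. DCN had 0 to 4 counts a library. Of 5 endothelial markers CDH5 and VWF were tested and called higher, VWF passing the filter through shRRM2 alone. The endothelial list had a summed level of 4.91 to 5.59 CPM in shRRM2 and 1.54 to 1.65 CPM in shNC, with KDR at 0. Of 5 immune markers 2 were called higher, CD68 among them, with a summed level of 84.0 to 87.2 CPM in shRRM2 and 28.2 to 29.4 CPM in shNC and CD3E at 0. CD68 alone made up most of that sum, at 82.5 CPM in shRRM2 and 26.0 CPM in shNC. CD14, below the filter and so not tested, had 6, 7 and 4 counts in shRRM2 replicates 1 to 3 and 8, 11 and 14 counts in shNC replicates 1 to 3. Its CPM values were lower in shRRM2 without overlap. Those of KRT19 and of the fibroblast marker COL3A1, also not tested, were higher in shRRM2 without overlap. The part of these markers in the changes of FOXA1, SOX9, GATA6 and HNF4A was not tested.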

How the data were processed

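RNA from PANC-1 cells was measured in 3 shRRM2 and 3 shNC libraries made, per the labels' protocols, from poly-T selected RNA with a directional kit. The authors deposited raw counts of reads for each Gene ID. The submitters' processing notes name fastp 0.23.4, featureCounts and hg38. Not given in the sources used here are the aligner, the annotation release and how strand and multi-mapping reads were handled. Column names carry the prefix si where the labels have sh, and each column was matched by gene name and number. Of 42902 IDs, 40120 matched a RefSeq symbol (GRCh38.p14), and the unmatched IDs held 1.25% of the counts.

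From the deposited counts, genes were kept with filterByExpr in edgeR 4.0.16 (R 4.3.3), which asks for 0.560 CPM in at least 3 libraries. Library sizes were scaled with TMM, and the quasi-likelihood test (robust, group alone, two-sided) was run on 15866 genes with Benjamini-Hochberg adjustment and a threshold of 0.05. At 1 CPM a gene rests on 16.5 to 23.1 counts in a library. The SE is the absolute log2 fold change over the root of F, with 95% intervals from the t distribution. Exact permutation tests were not run on single genes, since groups of 3 allow no p below 0.1. Levels per kilobase divide CPM by the exon bases of GENCODE 29. Promoter windows came from RefSeq.

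The factors and the gene lists were chosen with earlier results of these data known. Every factor was named. Genes of the factor, paralog and noncoding lists could be named if tested, genes of the other lists if called (up to 6 a direction), and genes below the filter by their counts. KRT20, F10, TF and CEL, which were not called, and TNS4, outside the first 6, were chosen after their values were seen. The lists were read by counts and medians, with no set test. GATA5, HNF4G, FOXA3, KLF4 and KRT7 each stand in more than 1 list, so the lists are not independent. Alternatives were library size alone or RLE factors in place of TMM, no filter, 1 CPM in 3 libraries as the filter, limma-voom (limma 3.58.1), DESeq2 1.42.0, a replicate block, leaving out each library, and an adjusted p of 0.01. A few list genes are not reported here or drawn, though every total includes them.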

Additional observations from a re-analysis of the deposited data

How the results depend on the processing

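FOXA1, SOX9 and GATA6 kept their direction and their call, and KLF5 its place above the threshold, under all 14 alternatives. Their log2 fold changes ran from 1.30 to 1.42 for FOXA1, from 1.15 to 1.41 for SOX9, from 0.50 to 0.67 for GATA6 and from −0.11 to −0.02 for KLF5. HNF4A, with 98 counts in all, stayed higher in each of the 13 alternatives that gave it a value and kept its call in 9. It was not called at an adjusted p of 0.01, where its log2 fold change of 1.19 has an adjusted p of 0.0159, and it was not tested with the filter of 1 CPM in 3 libraries. Leaving out 1 library moved HNF4A between 1.00 and 1.45, and the call was lost without shRRM2 replicate 2 (1.00, adjusted p = 0.0866), without shRRM2 replicate 3 (1.10, adjusted p = 0.0598) and without shNC replicate 2 (1.11, adjusted p = 0.0656). The single basal-like gene called lower, KRT7, was no longer called, leaving 0, with RLE factors, with library size alone, with no filter, with the filter of 1 CPM, with DESeq2 and at an adjusted p of 0.01, and leaving out 1 library gave 0 to 1. The cause was not tested. Called genes numbered 6672 to 8307 over the alternatives, and 3 or 4 lineage factors were called higher. Library size alone moved the median of all tested genes to 0.03 and the share of higher calls to 56.2%, against 49.9% with TMM.

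No pairing by replicate number was seen: the deviations of same-numbered libraries from their group means correlated at −0.00677, −0.00339 and −0.0208. With 3 libraries a group, these values cannot settle whether the samples were paired, and the labels name no pairing. With the replicate number as a block, 8244 genes were called, against 8261 without it, and the log2 fold changes were 1.37 for FOXA1, 1.31 for SOX9, 0.57 for GATA6, 1.17 for HNF4A (adjusted p = 0.0262) and −0.06 for KLF5.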
